A study of Mus musculus with 14 samples.

Results

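Fat2, Cbln1, Cbln3, Gabra6, Zic1, Zic2 and Pcp2 are 7 genes known for their expression in cerebellar granule and Purkinje cells, taken here by gene symbol from 19360 genes measured in brain tissue labelled anterior cortex. They were chosen by their read counts in single libraries: 1 heterozygous and 1 wild-type library carried high Fat2. Their levels across libraries are therefore a description, without a test of the high libraries against the others. The 14 libraries came from C57BL/6J mice aged 15 months, 1 mouse each. There were 4 homozygous mice (DG/DG), 6 heterozygous mice (DG/+) and 4 wild-type mice (WT), where DG is the allele of Vcp that the series title calls a dominant hypomorph. The labels name no transgene, sex, litter, dissection date or batch, and the replicate is the mouse.

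The cerebellum is built around granule cells, small glutamatergic neurons whose parallel fibres contact the dendrites of Purkinje cells, the only output neurons of its cortex. Granule cells secrete cerebellins, which bridge presynaptic neurexins and the Purkinje cell receptor GluD2, and they carry GABA-A receptors with the alpha6 subunit. Zic transcription factors act in granule cell precursors, and also in the developing midline, septum and meninges of the forebrain. The anterior cortex holds no granule or Purkinje cells of the cerebellar type.

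Total counts per library were 8.65 to 15.91 M, over 1 transcript per gene. Levels are in CPM, read counts scaled to 1 M reads per library with TMM factors. All 15 listed markers of cortical neurons passed the filter on low counts, and their summed level was 2070 CPM in DG/+ replicate 2 and 2120 CPM in WT replicate 2, within the 1650 to 2320 CPM of the other 12 libraries. Several libraries stood apart for other tissues. Pituitary markers summed to 4350 CPM in one DG/DG library against at most 160 CPM elsewhere, and choroid plexus markers reached 1220 CPM in a DG/+ library and 2160 CPM in a WT library. In DG/+ replicate 2 and WT replicate 2 the choroid plexus sums were 343 and 371 CPM and the pituitary sums 148 and 123 CPM. In bulk tissue, fewer cells of a type and less RNA per cell cannot be told apart.

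Of the 7 genes, 4 were far higher in DG/+ replicate 2 and WT replicate 2 than in any of the other 12 libraries: the granule cell genes Fat2, Cbln3 and Gabra6 and the Purkinje cell gene Pcp2. These 2 libraries held 81.4% of all Fat2 reads, 84.7% of Cbln3 reads, 95.1% of Gabra6 reads and 89.4% of Pcp2 reads. Cbln1, Zic1 and Zic2 did not separate the same libraries. The description by high Fat2 libraries thus held for 4 genes, and the other 3 had reads in all 14 libraries, with a ratio of highest to lowest level of 6.47 for Cbln1, 3.24 for Zic1 and 3.81 for Zic2.

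Fat2 encodes a giant cadherin of granule cell parallel fibres. In DG/DG replicates 1 to 4 it was at 2.55, 2.88, 0.547 and 1.74 CPM. In DG/+ its lowest, median and highest levels were 0.0805, 1.62 and 41.6 CPM, and in WT replicates 1 to 4 it was at 0.948, 40.8, 2.46 and 0.925 CPM. DG/+ replicate 2 (525 reads) and WT replicate 2 (470 reads) were thus at 25.7 and 25.2 times the median of the other 12 libraries, and the nearest other library, DG/DG replicate 2, had 36 reads. All 14 libraries held at least 1 Fat2 read, so outside the high pair the gene was low. DG/+ replicate 4 held only 1 read (0.0805 CPM, where 3 reads would be 0.241 CPM), and expression in each library was not tested. The rest of the atypical cadherin family was abundant in cortex and did not follow it. Fat1 was at 229 and 179 CPM in DG/+ replicate 2 and WT replicate 2, against 145 to 233 CPM in the others. For Fat3 these levels were 678 and 523 CPM against 403 to 692 CPM, and for Fat4 57.1 and 55.0 CPM against 43.7 to 118 CPM.

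Cbln3 encodes a cerebellin that is secreted as a complex with Cbln1. It was at 0.786, 1.28, 0.312 and 0.436 CPM in DG/DG replicates 1 to 4. In DG/+ it ranged between 0.241 and 24.3 CPM with a median of 0.876 CPM, and in WT replicates 1 to 4 it was at 0.158, 21.5, 0.141 and 0.809 CPM. The high pair, with 307 and 248 reads, lay at 43.0 and 38 times the median of the others, whose highest count was 23. Gabra6, the alpha6 subunit, had 4, 3, 1 and 0 reads in the DG/DG libraries. It had 0, 253, 8, 2, 1 and 0 reads in DG/+ replicates 1 to 6 and 0, 138, 0 and 1 reads in WT replicates 1 to 4. The high pair stood at 20 CPM (95% Poisson interval 17.7 to 22.7) and 12 CPM (10.1 to 14.2), where the intervals cover counting error only. Of the other 12 libraries, 5 held no Gabra6 read, and 3 reads would be 0.191 to 0.261 CPM there.

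Pcp2 (also called L7) encodes a modulator of G protein signalling and is the classical Purkinje cell transcript. It had no read in any of the 4 DG/DG libraries, where 3 reads would be 0.234 to 0.295 CPM. DG/+ replicates 1 to 6 held 2, 98, 13, 2, 1 and 0 reads, and WT replicates 1 to 4 held 1, 63, 0 and 0 reads. The high pair was at 7.77 CPM (95% interval 6.3 to 9.46) in DG/+ replicate 2 and 5.47 CPM (4.2 to 7.0) in WT replicate 2. DG/+ replicate 3 came next with 0.964 CPM (0.513 to 1.65). That library also came next after the high pair for Cbln3 (1.7 CPM) and Gabra6 (0.593 CPM), and had rank 4 for Fat2 (2.67 CPM).

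**Figure D1:**
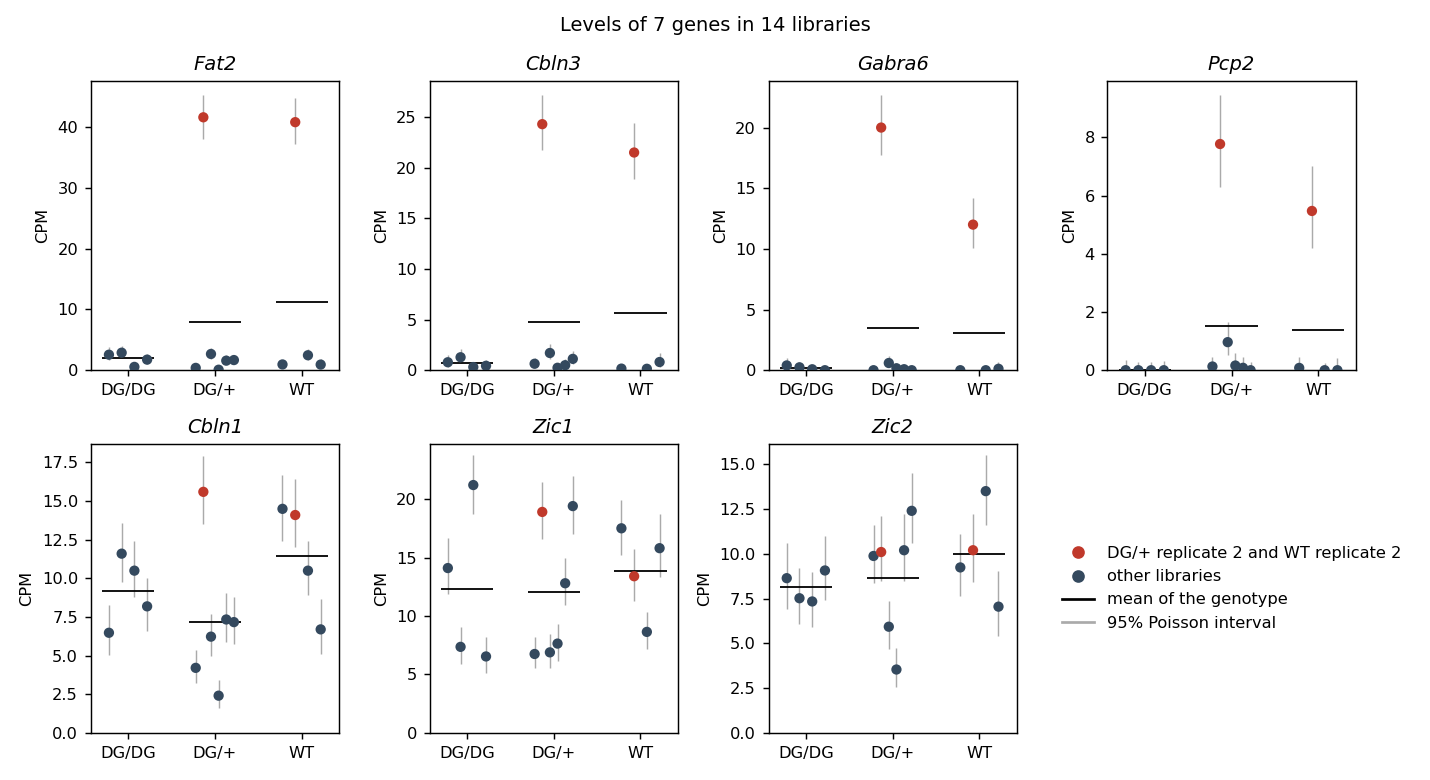
Level of each of the 7 genes in CPM (y axis) in the 14 libraries, by genotype (x axis), with 95% Poisson intervals and the mean of each genotype. DG/+ replicate 2 and WT replicate 2 lie above every other library for Fat2, Cbln3, Gabra6 and Pcp2, and among the others for Zic1 and Zic2, while for Cbln1 only WT replicate 1 lies between them.

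The 4 genes lie at separate places in the genome. As RefSeq gene spans in coordinates of GRCm38.p6 (mm10), Fat2 (NM_001029988) spans chromosome 11, 55250609 to 55337505, and Gabra6 (NM_001099641) chromosome 11, 42306437 to 42321072. Cbln3 (NM_019820) spans chromosome 14, 55878920 to 55884256, and Pcp2 (NM_008790) chromosome 8, 3623369 to 3625547. Pcp2 overlaps the ubiquitously expressed gene Pet100 over 867 bases, and without knowledge of strand in the counting their reads cannot be fully told apart. Pet100 itself was at 13.3 and 12.7 CPM in DG/+ replicate 2 and WT replicate 2 and at 11.4 to 15.7 CPM in the others. Of these other libraries, 7 held no Pcp2 read. The table gave 2 Gabra6 and 3 Pcp2 transcripts with identical counts, and 1 of each was kept.

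For these 4 genes, RefSeq windows of GRCm38.p6 at annotated starts are shown, covering 250 bases before to 50 bases after the start. Each is printed 5′ to 3′ along its gene, which lies on the minus strand. The genes were chosen on their levels in single libraries, and shared regulation was not tested. Capitals mark matches, on either strand, to TTGGC, the half-site of NFI factors (which are known in mouse to act on Gabra6 in granule cells), to CAGCAGG, a motif of Zic factors, or to CAGCTG and CAGATG, the E-boxes of Atoh1-type factors. The windows are chr11:55312208-55312507 for Fat2, chr14:55884207-55884506 for Cbln3, chr11:42321023-42321322 for Gabra6 and chr8:3625233-3625532 for Pcp2. The windows of Fat2 and Pcp2 lie at starts inside the gene spans given above. On the minus strand a gene begins at the higher coordinate, which for Fat2 is 55337505. The Fat2 window ends at 55312507 and does not reach it. Whether the Fat2 window acts as a promoter was not tested, and its marked match lies after an ATG in the printed bases.
Fat2: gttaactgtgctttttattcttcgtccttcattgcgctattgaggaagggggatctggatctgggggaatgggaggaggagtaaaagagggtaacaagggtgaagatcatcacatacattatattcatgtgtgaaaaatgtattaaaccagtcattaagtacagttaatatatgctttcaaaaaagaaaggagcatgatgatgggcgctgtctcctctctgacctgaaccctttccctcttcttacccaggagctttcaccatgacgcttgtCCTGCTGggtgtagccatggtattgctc
Cbln3: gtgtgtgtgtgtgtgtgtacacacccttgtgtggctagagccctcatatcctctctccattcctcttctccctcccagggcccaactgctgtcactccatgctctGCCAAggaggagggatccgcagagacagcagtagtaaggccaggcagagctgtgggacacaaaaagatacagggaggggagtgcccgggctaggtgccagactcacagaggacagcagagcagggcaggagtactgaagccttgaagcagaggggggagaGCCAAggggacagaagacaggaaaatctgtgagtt
Gabra6: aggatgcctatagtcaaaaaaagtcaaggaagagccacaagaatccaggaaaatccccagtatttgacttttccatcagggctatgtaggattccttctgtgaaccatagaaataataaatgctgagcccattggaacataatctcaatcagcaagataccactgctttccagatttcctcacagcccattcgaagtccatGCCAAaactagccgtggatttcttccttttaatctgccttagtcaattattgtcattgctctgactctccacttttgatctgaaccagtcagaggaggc
Pcp2: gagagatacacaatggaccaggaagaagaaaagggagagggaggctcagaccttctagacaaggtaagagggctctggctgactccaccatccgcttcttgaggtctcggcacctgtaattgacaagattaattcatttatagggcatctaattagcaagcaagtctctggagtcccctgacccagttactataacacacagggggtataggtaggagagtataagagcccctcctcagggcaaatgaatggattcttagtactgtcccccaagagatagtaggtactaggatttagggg
TTGGC was found 2 times for Cbln3, 1 time for Gabra6 and 0 times for Fat2 and Pcp2, and 46.7% of all 32851 promoter windows hold it. CAGCAGG was found 1 time, for Fat2, and 10.5% of all windows hold it. CAGCTG (in 16.3% of all windows) and CAGATG (17.2%) were found in none of the 4. The capitals spell the motif read from the opposite strand where a match lies there. No matches overlapped, and no searched motif was shared by the 4 windows.

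Cbln1, the founding cerebellin and the partner of Cbln3, is also made by some cortical and thalamic neurons. Its gene (NM_019626) spans chromosome 8, 87468853 to 87472592. It was at 6.48, 11.6, 10.5 and 8.19 CPM in DG/DG replicates 1 to 4. In DG/+ the lowest, median and highest levels were 2.41, 6.7 and 15.6 CPM, and WT replicates 1 to 4 had 14.5, 14.1, 10.5 and 6.7 CPM. DG/+ replicate 2 was the highest library and WT replicate 2 had rank 3, behind WT replicate 1. The other cerebellins and C1q-like genes also overlapped. Cbln2 was at 56.4 and 50.7 CPM in the high pair against 16.9 to 59.0 CPM in the others, and Cbln4 at 10.4 and 26.4 CPM against 11 to 28.4 CPM. C1ql1 was at 3.88 and 3.3 CPM against 2.16 to 5.58 CPM, C1ql2 at 0.555 and 1.48 CPM against 0.51 to 19.5 CPM, and C1ql3 at 176 and 127 CPM against 81.3 to 202 CPM.

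Zic1 (NM_009573; chromosome 9, 91358058 to 91365768) and Zic2 (NM_009574; chromosome 14, 122475384 to 122480328) encode zinc finger transcription factors. Zic1 was at 14.1, 7.36, 21.2 and 6.54 CPM in DG/DG replicates 1 to 4. Its lowest, median and highest levels in DG/+ were 6.75, 10.2 and 19.4 CPM, and it was at 17.5, 13.4, 8.64 and 15.8 CPM in WT replicates 1 to 4. The highest of all libraries was DG/DG replicate 3, and DG/+ replicate 2 and WT replicate 2 had ranks 3 and 7. Zic2 was at 8.64, 7.52, 7.34 and 9.07 CPM in the DG/DG libraries, at 3.54 to 12.4 CPM in DG/+ with a median of 10 CPM, and at 9.24, 10.2, 13.5 and 7.05 CPM in WT replicates 1 to 4. WT replicate 3, the library with the highest choroid plexus sum, was its highest, and the high pair had ranks 5 and 4. The part of other tissues in these levels was not tested. Their relative Zic4 was at 2.77 CPM in DG/+ replicate 2 and 2.52 CPM in WT replicate 2, against 1.04 to 4.95 CPM in the others. For Zic5 these levels were 1.11 and 0.955 CPM against 0.322 to 1.82 CPM. Zic1 overlaps Zic4 over 138 bases, where reads cannot be assigned to either without their strand.

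Per kilobase of transcript, the order of the 7 genes differed between the high pair and the other libraries. In DG/+ replicate 2 Pcp2, with the shortest transcript (495 bases), was highest at 15.7 CPM per kb, followed by Gabra6 (8.13), Zic1 (6.74), Cbln1 (5.58), Cbln3 (5.0), Zic2 (4.16) and Fat2 (2.88), whose transcript has 14423 bases. In WT replicate 2 Pcp2 was again first at 11.1 CPM per kb and Fat2 last at 2.83 CPM per kb. In the other 12 libraries the medians were 3.81 CPM per kb for Zic1, 3.63 for Zic2 and 2.59 for Cbln1. There the medians of Cbln3 (0.116), Fat2 (0.112) and Gabra6 (0.0325) were far lower, and that of Pcp2 was 0.

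The high pair was alike for the granule cell genes Fat2 and Cbln3 and less so for Gabra6 and Pcp2. The ratio of DG/+ replicate 2 to WT replicate 2 was 1.02 for Fat2 (95% interval 0.898 to 1.16) and 1.13 for Cbln3 (0.953 to 1.34). It was 1.67 for Gabra6 (1.35 to 2.07) and 1.42 for Pcp2 (1.02 to 1.98). These intervals cover counting error within 2 libraries and do not compare genotypes. Of the summed reads of the 4 genes, Fat2 made up 44.4% (exact binomial interval 41.5 to 47.3%) in DG/+ replicate 2 and 51.1% (47.9 to 54.4%) in WT replicate 2. In DG/+ replicate 3, with 80 such reads, it made up 45% (33.8 to 56.5%), and in the other 11 libraries summed 66.8% (61.0 to 72.2%). The Purkinje gene Pcp2 made up 8.28%, 6.86% and 16.2% in DG/+ replicate 2, WT replicate 2 and DG/+ replicate 3, and 2.1% in the other 11 libraries summed. Summed over those 11 libraries, the low reads thus had more Fat2 and less Gabra6 and Pcp2 than the high pair. This did not hold in each library. In DG/+ replicates 1 and 4 Fat2 had fewer reads than Cbln3 (6 against 10 and 1 against 3). In the others it had more, up to 35 against 2 in WT replicate 3. The interval of the sum covers counting error and not the spread between these mice.

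**Figure D2:**
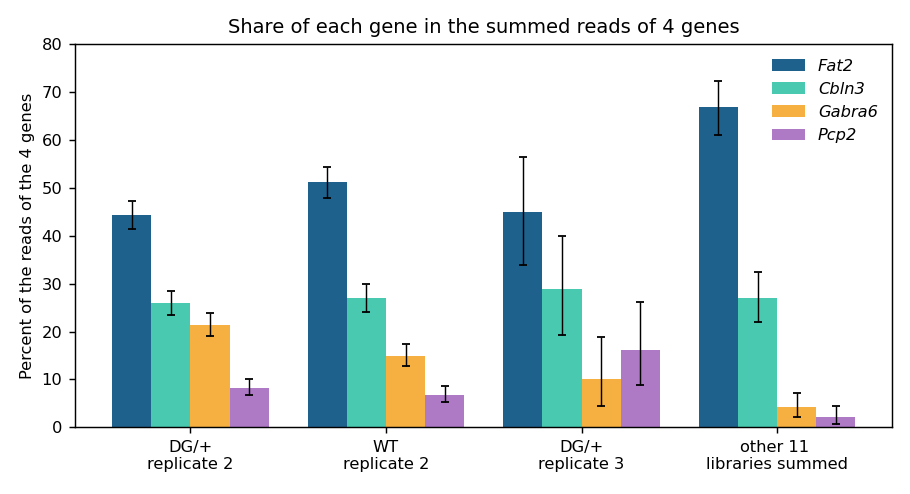
Share of Fat2, Cbln3, Gabra6 and Pcp2 in their summed reads (y axis, percent, with exact 95% binomial intervals) in DG/+ replicate 2, WT replicate 2, DG/+ replicate 3 and the other 11 libraries summed. Fat2 takes 44.4% and 51.1% in the high pair and 66.8% in the other 11 libraries summed.

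Further genes of the cerebellum were counted from lists of known markers by whether both libraries of the high pair lay above all other 12. The lists were chosen with earlier results of these data known, so their shares are a description. Over all 14565 genes past the filter this held for 81 genes (0.556%). Of 21 other Purkinje cell genes past the filter it held for 5, and of 16 other granule cell genes for 2. With genes under the filter included, where 0.754% of all genes met the condition, it held for 7 of 24 and 5 of 22. It held for 0 of 10 genes of Bergmann glia, cerebellar interneurons and unipolar brush cells past the filter, and for 0 of all 16 listed. These 16 summed to 399 and 420 CPM in the high pair against 343 to 426 CPM in the others. Sept4 alone made up 168 and 167 CPM of the sums in the pair, so a small share of such cells could be missed. Eomes, under the filter and also listed for olfactory bulb, had 58 and 13 reads in the pair against at most 14. The condition also held for 0 of 13 other GABA-A receptor subunits and 0 of 15 cortical genes.

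Among Purkinje cell genes, Car8, an inhibitor of the IP3 receptor, was at 66.1 CPM in DG/+ replicate 2 and 45.8 CPM in WT replicate 2, against 7.38 to 18.2 CPM in the others. Arhgef33 was at 6.89 and 5.47 CPM against at most 1.41 CPM. Ppp1r17 (Gsbs in the table), a phosphatase inhibitor regulated by cGMP-dependent kinase, was at 4.6 and 3.39 CPM against at most 1.17 CPM. The glutamate transporter Slc1a6 (11.1 and 10.6 against at most 9.32 CPM) and the G protein subunit Gng13 (20.8 and 17.9 against at most 17.8 CPM) were only just above. The homeobox gene Lhx1 (8 and 6 reads against at most 4) and the corepressor Skor2 (2 and 1 reads against at most 1) had few reads.

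Among granule cell genes, the homeobox gene En2 of the midbrain and hindbrain was at 2.46 and 2.34 CPM in DG/+ replicate 2 and WT replicate 2, against at most 0.632 CPM in the others. Crtam, an adhesion molecule, was at 2.54 and 1.3 CPM against at most 0.0872 CPM. Barhl1, a homeobox gene of granule cell precursors, had 3 and 5 reads in the pair and 0 in the other 12 libraries. Neurod1 (13.2 and 14.8 against at most 12.9 CPM) and the Rac regulator Chn2 (884 and 752 reads against at most 762, or 1.09 times the highest other level), both expressed in cortex, were only just above.

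A stricter condition, chosen after the data were seen, asked for at least 10 reads in both libraries and at least 2 times the level of the highest other library. It was met by 12 of 13920 genes (0.0862%). These were Fat2, Cbln3, Gabra6 and Pcp2, the listed genes Car8, Arhgef33, Ppp1r17, Crtam and En2, and 3 genes in no list. Those 3 were Dao, which oxidises D-amino acids (1.03 and 1.3 CPM against at most 0.159 CPM), the repressor gene Hes3 (0.951 and 0.955 against at most 0.347 CPM) and Cnpy1 (0.792 and 1.39 against at most 0.0825 CPM).

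Of the marker lists of other regions and tissues, 0 had a gene past the filter that lay above all other libraries in both libraries of the pair. Of 14 hindbrain genes in the table, Hox genes among them, 1 passed the filter and 5 had no read in either library, and their summed level was 1.58 CPM in DG/+ replicate 2 and 2.6 CPM in WT replicate 2, against 0.859 to 2.95 CPM in the others. Thalamic genes summed to 193 and 184 CPM against 175 to 457 CPM, and septal and basal forebrain genes to 48.8 and 46.1 CPM against 45.6 to 132 CPM. Meningeal genes summed to 144 and 118 CPM against 75.5 to 312 CPM. Olfactory bulb genes differed within the pair, with 249 CPM in DG/+ replicate 2, the highest of the 14 libraries, and 88.0 CPM in WT replicate 2, against 80.8 to 232 CPM. The share of these tissues in the levels of the 7 genes was not tested.

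**Figure D3:**
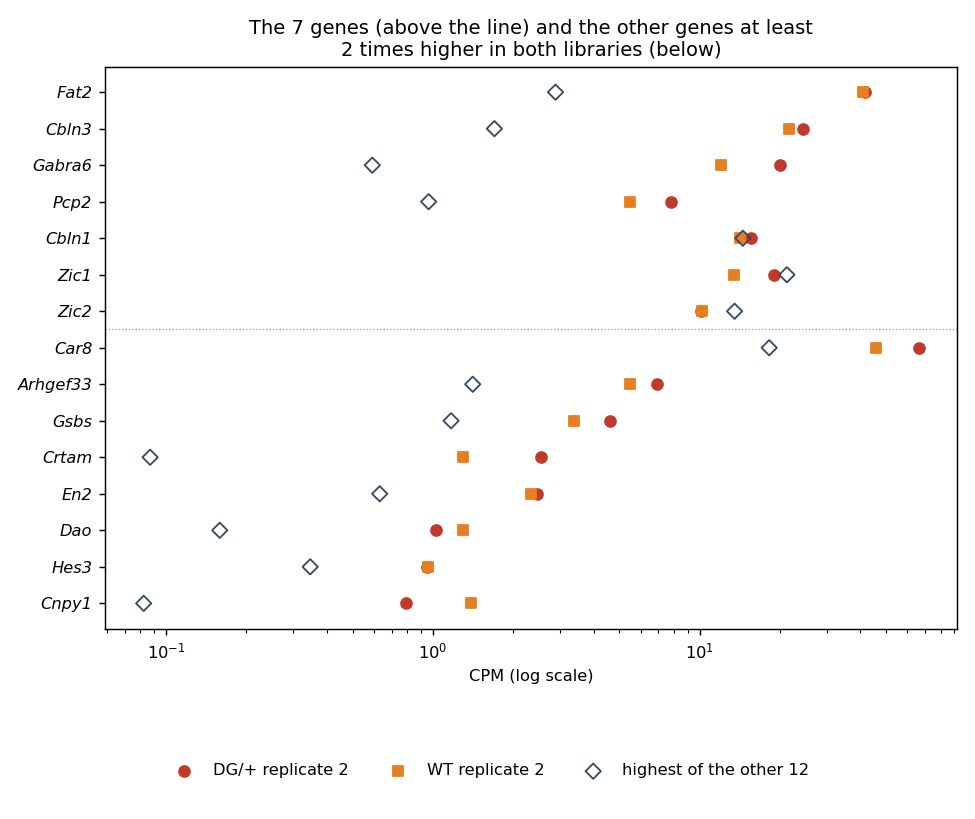
Level in CPM (x axis, log scale) in DG/+ replicate 2 (circles), WT replicate 2 (squares) and the highest of the other 12 libraries (open diamonds), for the 7 genes above the line and the 8 other genes with at least 10 reads in both libraries and 2 times the highest other below it. The highest other library lies far below both libraries for Fat2, Cbln3, Gabra6 and Pcp2, and above WT replicate 2 for Cbln1, Zic1 and Zic2.

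The likeness of other genes to Fat2 was measured by Pearson's correlation of log2 CPM over the 14 libraries, which share their depth and scaling, and is a description. The highest values outside the 7 genes were 0.83 for Kcnip3, a calcium-binding potassium channel partner, 0.81 for AU019823, 0.79 for Ankrd29, 0.76 for Prss16, 0.76 for Car8 and 0.76 for Chrna5, a nicotinic receptor subunit. They were followed by F630042J09Rik (0.74), Neurod1 (0.73), Gng13 (0.73) and Arhgef33 (0.73). Among the 7 genes it was 0.88 for Cbln3, 0.86 for Gabra6, 0.78 for Pcp2, 0.70 for Cbln1, 0.45 for Zic2 and 0.25 for Zic1. Over the 12 other libraries it was 0.44 for Cbln3, 0.27 for Gabra6, -0.06 for Pcp2, 0.61 for Cbln1, 0.53 for Zic2 and -0.04 for Zic1, and 0.76 for Kcnip3. Kcnip3 differed little in size, with 163 and 160 CPM in the pair against 131 to 156 CPM.

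The genotype comparisons ask whether the DG allele altered these transcripts. None of the 7 genes passed its test between genotypes over the 14 libraries, and DG/DG has no library of the high pair. Of the 5 genes past the filter, Fat2 and Cbln3 had the largest fold changes, in DG/DG against WT and against DG/+. Mean levels of Fat2 were 1.93 ± 1.04 CPM in DG/DG, 8.0 ± 16.5 CPM in DG/+ and 11.3 ± 19.7 CPM in WT (SD, n = 4, 6 and 4). Cbln3 averaged 0.703 ± 0.433 CPM in DG/DG, 4.75 ± 9.6 CPM in DG/+ and 5.66 ± 10.6 CPM in WT. In DG/+ and WT the SD exceeded the mean, since 1 library carried most reads.

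The edgeR quasi-likelihood test, fitted to all genes and libraries, called 0 of 14565 genes (0%) at an adjusted p below 0.05 in each of the 3 comparisons. At an unadjusted p below 0.05 stood 747 genes in DG/DG against WT, 233 in DG/+ against WT and 481 in DG/DG against DG/+. DESeq2 and limma-voom also called 0. DESeq2 gave no adjusted p for Fat2 and Cbln3, so its call of 0 does not cover these genes. Of the 7 genes, 5 passed the filter. In DG/DG against WT, Fat2 had a log2 fold change of -2.56 (SE 1.73, edgeR adjusted p = 0.889) and Cbln3 one of -2.99 (SE 1.86, edgeR adjusted p = 0.886). Without WT replicate 2 they were 0.35 and 1.10. In DG/+ against WT, Fat2 was at -0.51 (SE 1.36) and Cbln3 at -0.26 (SE 1.38), with an edgeR adjusted p of 1 for both. Without WT replicate 2 these were 2.40 and 3.84, and without DG/+ replicate 2 they were -3.15 and -2.73. With limma-voom the DG/DG against WT values were -0.98 for Fat2 and -0.33 for Cbln3. In DG/DG against DG/+, Fat2 was at -2.05 (SE 1.64) and Cbln3 at -2.73 (SE 1.78), with an edgeR adjusted p of 0.972 for both, and without DG/+ replicate 2 they were 0.59 and -0.26. The size and in most cases the sign of these fold changes thus turned on 1 library.

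Cbln1, Zic1 and Zic2 had smaller fold changes and errors. Cbln1 averaged 9.18 ± 2.29 CPM in DG/DG, 7.16 ± 4.55 CPM in DG/+ and 11.4 ± 3.62 CPM in WT (SD, n = 4, 6 and 4). Its log2 fold change was -0.32 (95% confidence interval -1.23 to 0.59) in DG/DG against WT, -0.69 (-1.52 to 0.14) in DG/+ against WT and 0.37 (-0.47 to 1.21) in DG/DG against DG/+. Without the high pair these were -0.21 (-0.95 to 0.53), -0.96 (-1.67 to -0.25) and 0.75 (0.08 to 1.42), with an edgeR adjusted p of 0.995, 1 and 0.991 over 14675 genes. Zic1 averaged 12.3 ± 6.82 CPM in DG/DG, 12.1 ± 5.92 CPM in DG/+ and 13.8 ± 3.84 CPM in WT. Its log2 fold changes were -0.16 (-1.12 to 0.79) in DG/DG against WT, -0.20 (-1.06 to 0.67) in DG/+ against WT and 0.03 (-0.84 to 0.91) in DG/DG against DG/+. Zic2 averaged 8.14 ± 0.844 CPM in DG/DG, 8.69 ± 3.29 CPM in DG/+ and 9.99 ± 2.68 CPM in WT, and its log2 fold changes in these comparisons were -0.31 (-0.94 to 0.33), -0.21 (-0.78 to 0.36) and -0.10 (-0.68 to 0.48). Over the 14 libraries, the edgeR adjusted p of the 3 genes ran from 0.914 to 1. The libraries of the genotypes overlapped for all 7 genes in each comparison, where 2.62%, 0.316% and 1.21% of all genes past the filter did not overlap.

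For Gabra6 and Pcp2, which did not pass the filter, mean log2 CPM was compared by an unadjusted exact permutation test (two-sided). For Gabra6 the difference in mean log2 CPM was -0.84 in DG/DG against WT (exact permutation p = 0.886), 0.04 in DG/+ against WT (exact p = 1) and -0.88 in DG/DG against DG/+ (exact p = 0.729). For Pcp2 it was -1.42 in DG/DG against WT (exact p = 0.429), 0.38 in DG/+ against WT (exact p = 0.714) and -1.81 in DG/DG against DG/+ (exact p = 0.11). A prior count of 2 shrinks these differences. In edgeR without the filter, Gabra6 had log2 fold changes of -4.06 in DG/DG against WT and -4.26 in DG/DG against DG/+, and Pcp2 of -7.11 and -7.23, with edgeR adjusted p of 0.895 against WT and 0.932 against DG/+ for both genes. The Pcp2 values depend on edgeR's own prior count, since all DG/DG libraries are at 0, and are no bound. The smallest p that 70 splits of 4 against 4 allow is 0.0286. Without DG/+ replicate 2 the Pcp2 difference between DG/DG and DG/+ was -1.05 (exact permutation p = 0.0476), and without DG/+ replicate 6 it was -2.17 (exact permutation p = 0.0317), neither adjusted. Replicate 6 was the only DG/+ library with no Pcp2 read, so leaving it out separated DG/+ fully from DG/DG. DG/+ replicates 1, 4 and 5 held at most 2 Pcp2 reads, and no genotype difference is read from these p-values. Gabra6 averaged 0.178 ± 0.175 CPM in DG/DG, 3.48 ± 8.12 CPM in DG/+ and 3.02 ± 5.97 CPM in WT, and Pcp2 0 CPM in DG/DG, 1.52 ± 3.08 CPM in DG/+ and 1.39 ± 2.72 CPM in WT (SD, n = 4, 6 and 4).

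**Figure D4:**
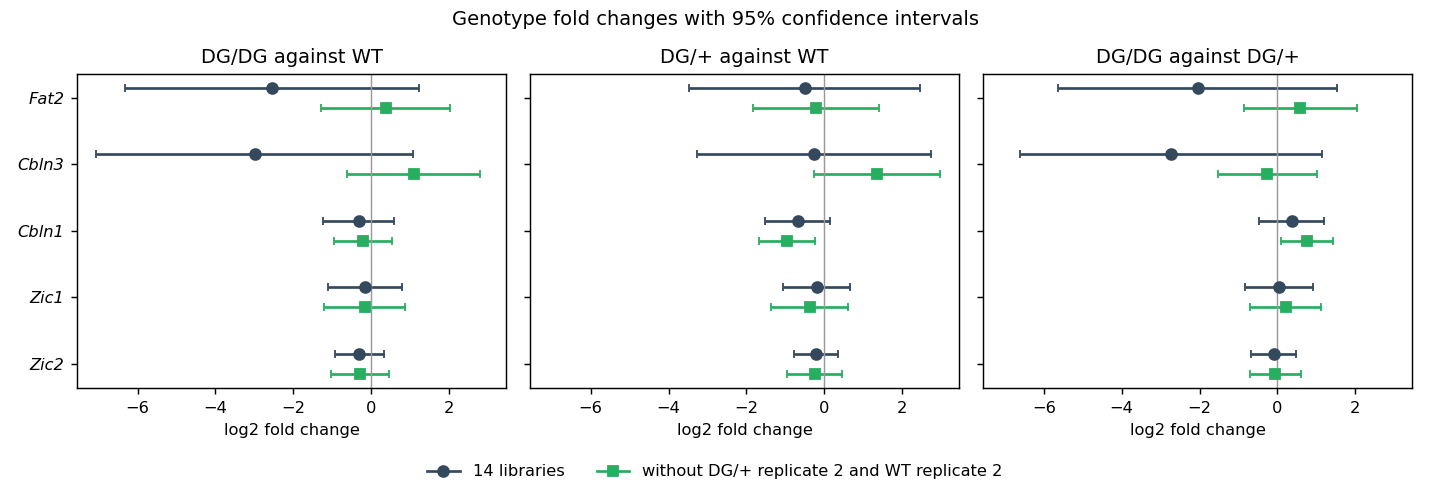
Log2 fold change (x axis) with 95% confidence interval of the 5 genes past the filter in the 3 genotype comparisons, with 14 libraries (circles) and without DG/+ replicate 2 and WT replicate 2 (squares). The intervals of Fat2 and Cbln3 narrow without the pair, and in DG/DG against WT they are at 0.37 and 1.09 without the pair and at -2.56 and -2.99 with it.

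In the authors' deposited table, DG/DG against WT gave log2 fold changes of -2.48 for Fat2, -2.83 for Cbln3, -3.51 for Gabra6 and -3.94 for Pcp2. The unadjusted p in the authors' deposited table were 0.00595, 0.00908, 0.00656 and 0.00146, each with a false discovery rate of 1. In the edgeR quasi-likelihood test used here, the unadjusted p were larger, at 0.165 for Fat2 and 0.135 for Cbln3. The fold changes of that fit without WT replicate 2 were 0.35 and 1.10. For Cbln1, Zic1 and Zic2 the authors' deposited table gave -0.30, -0.15 and -0.29, with p of 0.265, 0.642 and 0.216. In DG/+ against WT the authors' deposited table had values between -0.67 (Cbln1) and 0.20 (Gabra6), with p of 0.0607 for Cbln1 and above 0.4 for the others.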

How the data were processed

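The sources used here name no aligner, counting tool or RNA selection; the submitters' processing notes name mm10 and edgeR. The deposited table of 24939 RefSeq transcripts holds raw read counts per mouse, the authors' normalized log2 values (used in 1 alternative), and the authors' log2 fold changes and p-values. Per gene symbol the transcript with the most reads was kept (19360 genes). The 7 genes and the lists were chosen with earlier results of these data known.

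Counts were analysed with edgeR 4.0.16 in R 4.3.3: default filter on low counts (14565 genes), TMM scaling, robust quasi-likelihood fit of 14 libraries, Benjamini-Hochberg adjustment, threshold 0.05. The fit was tested on simulated data in which a set of genes changed in all DG/DG libraries. No simulated gene was set high in a single library, so that case was not tested. DESeq2 1.42.0 and limma 3.58.1 were alternatives. Log2 CPM used a prior count of 2. Transcript lengths came from GENCODE M21 through RefSeq accessions. Depths of 8.65 to 15.91 M counts per library set the precision. Genes named are the 7, the 10 most like Fat2, listed cerebellar genes above all other libraries in both high libraries, genes 2 times above them (chosen after seeing the data), and relatives of the 7 in the Zic, cerebellin and Fat families, of which 1 is not reported here. Listed symbols absent from the table were matched by accession (3 genes). Replicate numbers are those of the sample titles and name separate mice. In the deposited table the columns of WT replicates 2, 3 and 4 are headed WT3, WT4 and WT2.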

Additional observations from a re-analysis of the deposited data

Results flagged for a closer look

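A library counts as far from the others of its genotype when its gap to the nearest one exceeds Dixon's 95% critical value of the whole range. Of 20 sets (7 genes in 3 genotypes, leaving out Pcp2 in DG/DG, which is 0 throughout), 9 met this. All 9 were highest values and lay in DG/+ replicate 2 or WT replicate 2. The genes were chosen on these libraries, so this describes them, and the rate of about 1 in 20 that chance gives is no measure here. Fat2 stood at 41.6 CPM in DG/+ replicate 2 (next 2.67 CPM) and 40.8 CPM in WT replicate 2 (next 2.46 CPM). Cbln3 stood at 24.3 and 21.5 CPM, Gabra6 at 20 and 12 CPM and Pcp2 at 7.77 and 5.47 CPM in the same libraries. Cbln1 met it in DG/+ replicate 2 alone (15.6 CPM, next 7.34 CPM), with a gap of 0.626 of the range against a critical value of 0.625.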

How the results depend on the processing

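Over the settings other than leaving out 1 library, 136 fold changes and differences of single genes kept their direction and side of the threshold, 15 turned their sign and 1 passed it. Fat2 and Cbln3 in DESeq2, which had no adjusted p, are not counted there. Those that turned or passed follow, as log2 differences. Without DG/+ replicate 2 and WT replicate 2, Fat2 was at 0.372 in DG/DG against WT and 0.591 in DG/DG against DG/+, Cbln3 at 1.093 in DG/DG against WT and 1.354 in DG/+ against WT, Gabra6 at 0.655 in DG/DG against WT and 0.152 in DG/DG against DG/+, each with the sign turned, and Pcp2 at -1.045 in DG/DG against DG/+ (exact permutation p = 0.0476). With limma-voom, Cbln3 in DG/+ against WT was 0.655, and in DG/DG against DG/+ Fat2 was 0.1 and Zic2 0.002. With limma-trend on the authors' log2 values these were 0.49, 0.035 and 0.013, and Zic1 -0.004. With the replicate number as a block, Cbln3 in DG/+ against WT was 0.558 and Zic2 in DG/DG against DG/+ 0.209, and 0 genes were called in each comparison. Libraries of different genotypes with the same number in the sample titles had deviations correlated at -0.215 to 0.292 over 12 pairs, so the numbers were not taken as pairs. The column headers number some WT mice otherwise, and pairs by header number were not examined. The count of 81 genes high in both libraries of the pair was 146 without the filter, 5 with a margin of 2 times, and 12 with that margin over every gene with at least 10 reads in both libraries in place of the filter. Some values that kept their direction moved by over 1.5 times. In DG/DG against WT, Fat2 was -0.979 with limma-voom, -0.83 with limma-trend and -0.997 with the block, and Cbln3 -0.331, -0.453 and -1.676. In DG/DG against DG/+, Cbln3 was -0.987 with limma-voom and -0.942 with limma-trend, and Fat2 -0.76 with the block. In DG/+ against WT, Fat2 was -1.08 with limma-voom and -0.865 with limma-trend. In edgeR without the filter, Gabra6 was -4.063 in DG/DG against WT and -4.259 in DG/DG against DG/+, and Pcp2 -7.108 and -7.228. The cause of these differences was not tested.

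Leaving out 1 library at a time turned the sign of 23 values, and 0 genes were called each time. In DG/DG against WT the ranges were -2.947 to 0.354 for Fat2, -3.479 to 1.102 for Cbln3, -1.421 to 0.655 for Gabra6 and -0.567 to 0.047 for Zic1. In DG/+ against WT they were -3.147 to 2.404 for Fat2, -2.73 to 3.835 for Cbln3, -0.989 to 1.537 for Gabra6 and -0.378 to 1.615 for Pcp2. In DG/DG against DG/+ they were -2.332 to 0.591 for Fat2, -1.241 to 0.152 for Gabra6, -2.168 to -1.045 for Pcp2, -0.372 to 0.243 for Zic1 and -0.261 to 0.029 for Zic2. Outside the high pair, Gabra6 and Pcp2 had at most 8 and 13 reads per library, which limits the precision of their differences.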
